A study of Homo sapiens with 6 samples.

Results

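Genes of protein folding, quality control and secretion in the endoplasmic reticulum (ER) were followed in HCT116, an established cell line from a human colon tumour. The members are 41 genes chosen by function, and all probes of each were taken by gene symbol from the array annotation. Of these genes 39 had a named probe, 57 probes in all, and 37 had at least 1 probe bright enough to be tested, among 14534 genes tested on the array. The expression of HERPUD1 and KDELR2 was not analysed here, and the single probes of PDIA3 and ERN1 were too dim. All cells were harvested 48 h after treatment. The DMSO group received the solvent alone at 0.05%, and the TIC10 group received TIC10, the small molecule later named ONC201, at 10 µM. Each group had 3 arrays. The labels do not state whether these were separate cultures, so the p-values speak only of spread among the arrays, which may be technical. An array reads the pooled RNA of a culture, so fewer cells with a transcript and less of it per cell cannot be told apart.

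Proteins bound for secretion or for membranes enter the ER through the SEC61 channel, are folded by chaperones such as BiP (HSPA5) and GRP94 (HSP90B1) and oxidised by protein disulfide isomerases, and leave in vesicles coated with COPII. Chains that fail to fold are pulled back into the cytosol and destroyed, a route called ER-associated degradation. When unfolded chains build up, the membrane sensors IRE1 (ERN1), ATF6 and PERK start the unfolded protein response: IRE1 splices the XBP1 message into one for an active transcription factor, and ATF6 is cleaved to release another.

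Total bead intensity was 1.16e+07 to 1.91e+07 per array. The arrays correlated at 0.93 to 0.99 over all tested genes after normalization. DMSO replicate 3 stood apart: it was the brightest array, and it correlated at 0.96 and 0.97 with DMSO replicates 1 and 2, which correlated with each other at 0.99. In the tested members it differed from the mean of the other DMSO arrays by a median of 0.22 log2 units in either direction, against 0.18 over all genes. It was the lowest DMSO array for 22 of the 37 members and the highest for 8. The 9 members that missed the threshold with it and passed without it are given both ways. Values per array are normalized log2 intensities in the order of the replicates, 1 to 3, and differences are TIC10 minus DMSO on the log2 scale with the standard error (SE). The epithelial markers EPCAM, CDH1, KRT8 and KRT19 lay at or above percentile 93.8 of every array, whereas KRT18, CLDN3 and CLDN4 lay between percentiles 42.7 and 81.7. Of 10 markers of blood, vessel, connective, muscle and glial cells, none lay above percentile 71.5, and 5 were too dim to be tested.

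The ER genes did not move as a block. Of 37 members tested, 13 passed the test for a difference between TIC10 and DMSO (limma, Benjamini-Hochberg adjusted p under 0.05 over all genes), 7 of them higher and 6 lower after TIC10. That is 35.1% of the members, where 23.8% of all genes passed, 10.4% higher and 13.4% lower. The members that rose were DNAJB9, EDEM1, SEC24D, XBP1, SERP1, EDEM3 and CRELD1, and those that fell were CRELD2, SDF2L1, KDELR3, CALR, PDIA4 and MANF. The median log2 change over the 37 members was 0.24, against -0.01 over all genes. This excess depended on the processing. Bringing each array to one median gave medians of -0.17 for the members and -0.15 for all genes. The authors' processed values gave 0.02 and -0.01, and leaving out DMSO replicate 3 gave 0.12 and -0.01. The 3 TIC10 values lay wholly above the DMSO values in 14 members and wholly below in 8, 59.5% of the members against 41.6% of all genes (18.5% above, 23.1% below). DNAJB9, EDEM1 and SEC24D rose and CRELD2 fell at least 2-fold, where 4.62% of all genes passed with a change of that size. Scaling moved the split: when each array was brought to one median in place of quantile normalization, 2 members passed upward and 8 downward, against 2.19% and 13.8% of all genes, whose median change became -0.15. With DMSO replicate 3 left out, 12 members passed upward and 10 downward, where 35.6% of all genes passed (16.4% higher, 19.2% lower). Leaving out TIC10 replicate 1 gave 4 higher and 5 lower, where 6.13% and 8.08% of all genes passed. Leaving out TIC10 replicate 3 gave 4 and 3, where 6.43% and 8.35% of all genes passed. In the authors' processed values 7 were higher and 3 lower, where 6.7% of all genes passed (3.68% higher, 3.02% lower).

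**Figure D1:**
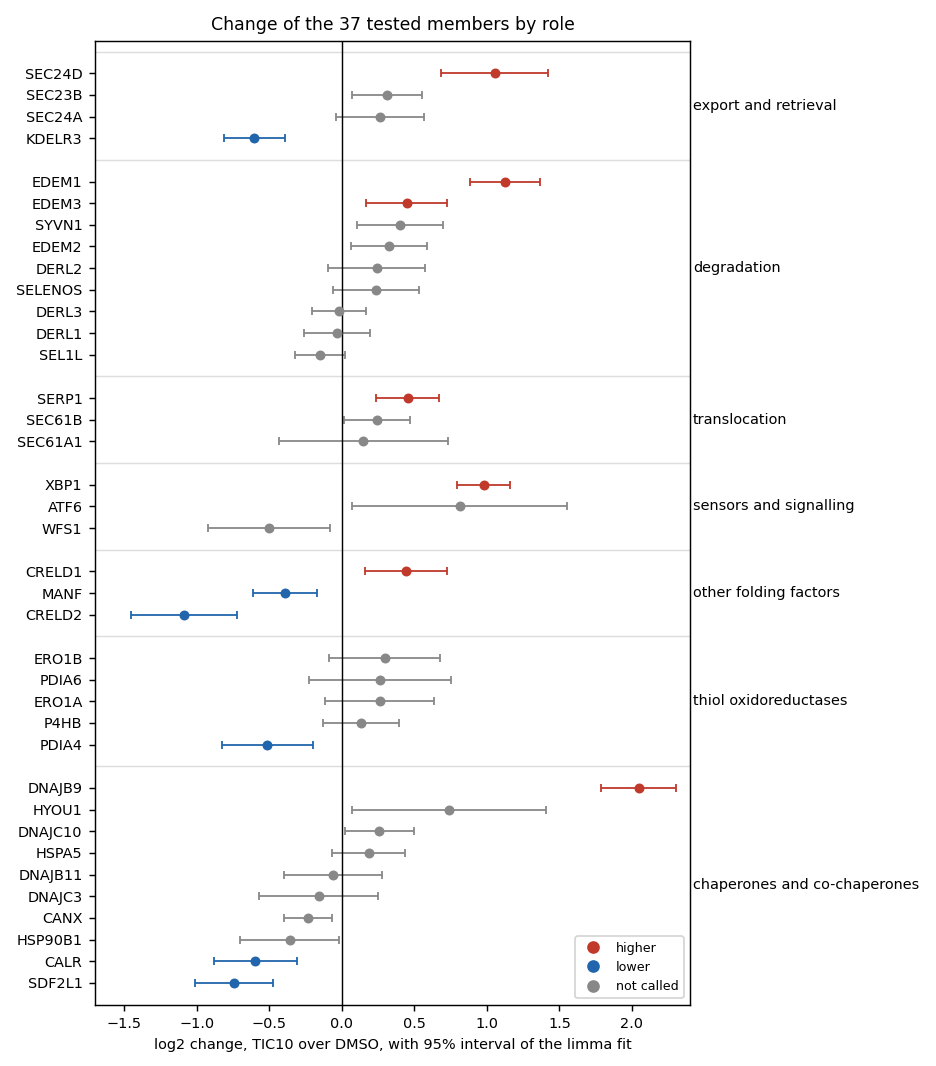
Log2 change of each tested member in TIC10 over DMSO arrays (points) with the 95% interval of the limma fit (bars), grouped by role; red marks members that passed the test upward, blue those that passed downward, grey the rest. DNAJB9 lies apart on the right at 2.05, and the falls are spread over the chaperones, the oxidoreductase PDIA4, the other folding factors and the retrieval receptor KDELR3.

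Among the genes of signalling, XBP1 rose. XBP1 encodes the transcription factor that IRE1 activates by splicing. On the normalized log2 intensity scale its brightest probe read 10.12, 10.10 and 10.23 under DMSO and 11.14, 11.07 and 11.18 under TIC10. The groups were separated by far more than the spread within either. The change was 0.98 ± 0.08 (SE), 1.97-fold, with an adjusted p = 0.000463 (limma), and a second probe, annotated to another transcript accession, rose by 1.04. Spliced and unspliced messages were not told apart here. Scaled to one median, XBP1 differed by 0.58 and missed the threshold (adjusted p = 0.246; 1.24e-05 to 0.246 over 16 alternatives).

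ATF6, the sensor that is itself cut into a transcription factor, was unevenly measured in the controls. It read 9.81, 9.34 and 8.48 under DMSO and 10.03, 9.93 and 10.10 under TIC10. All TIC10 values were above all DMSO values, yet the DMSO arrays were widely spread (SD 0.67) and the TIC10 arrays tight (SD 0.08). The difference of 0.81 ± 0.31 missed the threshold (adjusted p = 0.110 by limma, with 0.00546 to 0.374 over 16 alternatives). It was 0.45 without DMSO replicate 3 (adjusted p = 0.033) and 1.11 without DMSO replicate 1 (adjusted p = 0.0296). ERN1, which encodes IRE1, could not be judged: its only probe had raw intensities of 33.1, 40.02 and 32.2 under DMSO and 31.8, 32.1 and 29.1 under TIC10, too dim to pass the filter. WFS1, the Wolfram syndrome protein of the ER membrane, differed by -0.50 ± 0.18 (adjusted p = 0.0873). With DMSO replicate 3 left out it was -0.67 (adjusted p = 0.00449), and with arrays scaled to one median -0.88 (adjusted p = 0.00924). In the authors' processed values WFS1 was -0.14 (adjusted p = 0.673).

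The ER stress response element (ERSE), a site bound by NF-Y together with ATF6 or XBP1, was looked for in the promoters of the members and was found in members of both directions. RefSeq promoters of 36 members (build GRCh38.p14, 250 bases before to 50 after the first listed start) were searched on both strands for ERSE (CCAAT, 9 bases of any kind, CCACG), ERSE-II (ATTGG, any base, CCACG) and UPRE (TGACGTGG). ERSE was found in 8 of the 36 promoters, where 0.0769% of 35116 RefSeq promoters of the same length hold it, ERSE-II in 3 (0.0541%) and UPRE in 4 (0.729%). The members were chosen by function and include HSPA5, the classical ERSE gene, so these shares are a description and were not tested. The CARE motif of ATF4 targets (TGATG, any base, AA) was found in 1, that of HERPUD1 (3.62%), which also held an ERSE-II. In HYOU1 a UPRE match overlaps one of ERSE-II. Among 6 members that rose and have a listed promoter, 2 held an ERSE, XBP1 and SERP1, and of the 6 that fell 2 did, CALR and CRELD2. The other 4 were among the 22 members that did not pass: HSPA5, HSP90B1, CANX and ERO1B. SDF2L1, which fell, held an ERSE-II, and KDELR3, which fell, a UPRE. A match is a description of the letters and does not show that a factor binds there. The stretches of these 6 promoters, with that of HSPA5 beside them as the classical ERSE gene, are shown 5′ to 3′ on the strand of the gene, with the matched letters in capitals; a match that begins with CGTGG or CCACG is read on the opposite strand.
XBP1, chr22:28800588-28800636, minus strand: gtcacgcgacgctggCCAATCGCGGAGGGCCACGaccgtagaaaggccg
SERP1, chr3:150546695-150546743, minus strand: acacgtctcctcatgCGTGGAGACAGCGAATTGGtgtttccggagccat
CALR, chr19:12938369-12938417, plus strand: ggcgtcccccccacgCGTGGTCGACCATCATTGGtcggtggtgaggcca
CRELD2, chr22:49918539-49918587, plus strand: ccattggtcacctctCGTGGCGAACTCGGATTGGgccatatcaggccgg
SDF2L1, chr22:21642099-21642139, plus strand: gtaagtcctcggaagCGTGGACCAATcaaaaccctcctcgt
KDELR3, chr22:38468035-38468072, plus strand: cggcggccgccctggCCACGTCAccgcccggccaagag
HSPA5, chr9:125241376-125241424, minus strand: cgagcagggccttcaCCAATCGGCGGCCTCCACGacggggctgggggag

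Among the chaperones BiP and GRP94 did not pass, while one co-chaperone rose 4.13-fold. HSPA5, which encodes BiP, the most studied marker of ER stress, read 8.77, 8.87 and 9.11 under DMSO and 9.11, 9.14 and 9.06 under TIC10. DMSO replicate 3 was level with the TIC10 arrays, and the groups overlapped. The change was 0.19 ± 0.10 (adjusted p = 0.265; 95% interval -0.06 to 0.43). Without DMSO replicate 3 HSPA5 was 0.28 higher (adjusted p = 0.0303), in the authors' processed values 0.59 higher (adjusted p = 0.0117), where XBP1 was 0.49 higher, and after scaling to one median -0.25 (0.0117 to 0.595 over 16 alternatives). HSP90B1, which encodes GRP94, read 12.79, 12.69 and 12.26 under DMSO and 12.17, 12.26 and 12.24 under TIC10. Here too DMSO replicate 3 was level with the TIC10 values. The difference of -0.36 ± 0.14 did not pass (adjusted p = 0.122), but it was -0.52 without DMSO replicate 3 (adjusted p = 0.00182). HSP90B1 also passed after scaling to one median, at -0.59 (adjusted p = 0.0308). The authors' processed values gave HSP90B1 a smaller difference of -0.17, which did not pass (adjusted p = 0.581).

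DNAJB9, also called ERdj4, a J-domain co-chaperone that hands misfolded chains to BiP and binds IRE1, was that gene. It read 8.09, 8.02 and 7.80 under DMSO and 10.03, 9.89 and 10.12 under TIC10. The gap between the groups was several times the range within them, and the raw intensities were separated as well, at 220.3 to 303 on DMSO and 701 to 992 on TIC10 arrays. The change of 2.05 ± 0.11 had an adjusted p = 0.000181 (limma) and passed under all 16 alternatives. The other J-domain co-chaperones of BiP did not pass. DNAJB11 differed by -0.06, DNAJC3, the co-chaperone p58IPK, by -0.16, and DNAJC10, which carries thioredoxin domains as well, by 0.26. Of these DNAJC3 was -0.34 without DMSO replicate 3 (adjusted p = 0.0389), and DNAJB11 was -0.49 with arrays scaled to one median (adjusted p = 0.0378). In the authors' processed values DNAJC3 was -0.10 and DNAJB11 -0.04.

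The lectin chaperone CALR, calreticulin, and the BiP partner SDF2L1 fell. CALR, which binds calcium and glycoproteins in the ER lumen, read 10.11, 10.50 and 10.30 under DMSO and 9.84, 9.67 and 9.62 under TIC10. All TIC10 arrays were below all DMSO arrays. The change was -0.60 ± 0.12 (adjusted p = 0.0137), and TIC10 replicates 2 and 3 were each needed for the call (adjusted p up to 0.0598 when left out). SDF2L1, which works with DNAJB11 at BiP, read 10.96, 10.93 and 10.92 under DMSO and 10.28, 10.34 and 9.96 under TIC10. The DMSO values were nearly equal and the lowest TIC10 value was that of replicate 3. SDF2L1 changed by -0.74 ± 0.11 (adjusted p = 0.00472) and passed under all 16 alternatives, like DNAJB9 but in the opposite direction. CANX, calnexin, the membrane relative of CALR, differed by -0.23 ± 0.07 and did not pass (adjusted p = 0.0508, and 0.0482 without DMSO replicate 3), with a second probe at -0.19. In the authors' processed values these probes of CANX were 0.14 and -0.09. HYOU1, which exchanges nucleotide on BiP, read 8.06, 8.21 and 9.17 under DMSO and 9.28, 9.10 and 9.27 under TIC10. When each array was left out in turn, only DMSO replicate 3 changed the call for HYOU1. With it the difference was 0.74 ± 0.28 (adjusted p = 0.108), and without it 1.08 (adjusted p = 7.54e-05). A second probe of HYOU1 gave 0.71, and the authors' processed values 0.86 (adjusted p = 0.00776).

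Among the thiol oxidoreductases, which form and rearrange disulfide bonds, PDIA4 fell and none rose. PDIA4 read 8.57, 8.33 and 8.56 under DMSO and 8.16, 7.73 and 8.03 under TIC10. The groups did not overlap. The change was -0.51 ± 0.13 (adjusted p = 0.0315), missed the threshold when DMSO replicate 1 or TIC10 replicate 2 or 3 was left out (adjusted p up to 0.0877), and was -0.05 in the authors' processed values (adjusted p = 0.907). P4HB, PDIA6, ERO1A and ERO1B differed by 0.13 to 0.29, and none passed. Without DMSO replicate 3 these differences were 0.06, 0.03, 0.08 and 0.17. With arrays scaled to one median they were -0.23, -0.17, -0.14 and 0.19, so that P4HB, PDIA6 and ERO1A turned. In the authors' processed values they were -0.01, -0.01, 0.11 and 0.22. The probe of PDIA3 read 33.6 to 47.4 in raw intensity over the 6 arrays and was not tested.

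The remaining folding factors went in both directions. CRELD2, a secreted ER stress gene with a disulfide isomerase activity, read 10.41, 10.38 and 9.87 under DMSO and 9.13, 9.21 and 9.07 under TIC10. Even DMSO replicate 3, the lowest of its group, was above every TIC10 array. The change of -1.09 ± 0.15 was a 2.12-fold fall (adjusted p = 0.00352), the largest among the members, but it was -0.33 in the authors' processed values where it missed the threshold (adjusted p = 0.265, with 1.79e-05 to 0.265 over 16 alternatives). MANF, a small secreted protein that binds BiP, read 11.70, 11.92 and 11.77 under DMSO and 11.39, 11.50 and 11.33 under TIC10. The separation was small but complete. MANF changed by -0.39 ± 0.09 (adjusted p = 0.0237), and missed the threshold when DMSO replicate 2 or TIC10 replicate 1 or 3 was left out (adjusted p up to 0.0898). CRELD1, the membrane-bound relative of CRELD2, read 8.65, 8.68 and 8.33 under DMSO and 8.87, 9.08 and 9.04 under TIC10. It rose by 0.44 ± 0.12 (adjusted p = 0.0381), but missed the threshold when any one array other than DMSO replicate 3 was left out (adjusted p up to 0.124), and its other 2 kept probes gave 0.10 and 0.08.

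**Figure D2:**
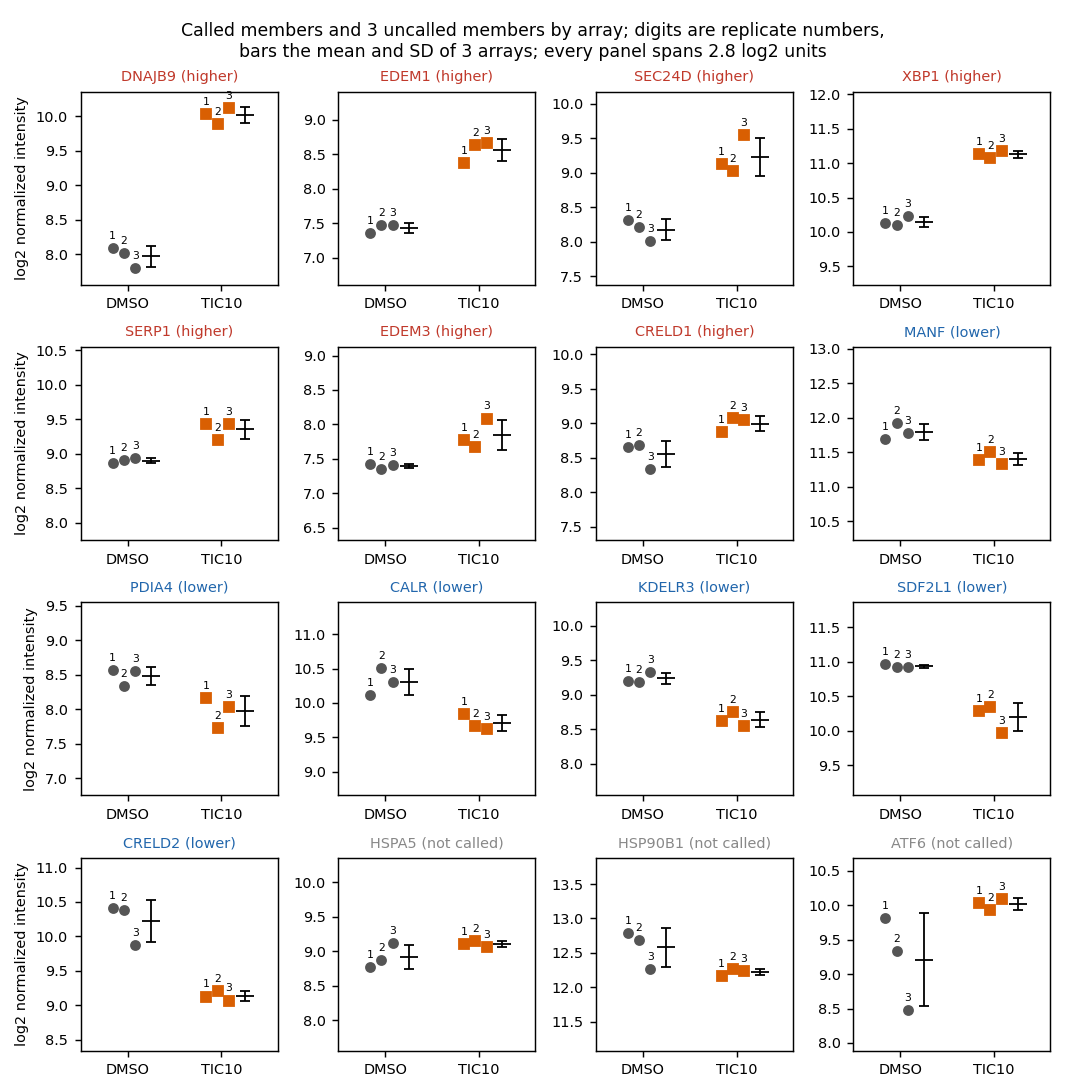
Normalized log2 intensity (vertical axis) on each DMSO (circles) and TIC10 (squares) array for the 13 members that passed the test and for HSPA5, HSP90B1 and ATF6, which did not; bars show the mean and SD of 3 arrays. The groups are separated in all 13, by far in DNAJB9. DMSO replicate 3 lies away from the other DMSO arrays most in CRELD1, CRELD2, HSPA5, HSP90B1 and ATF6.

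In the degradation machinery 2 of 9 tested members rose and 0 fell, where 10.4% and 13.4% of all genes did. EDEM1, a lectin that trims mannose from misfolded glycoproteins and sends them to degradation, read 7.35, 7.47 and 7.47 under DMSO and 8.37, 8.63 and 8.66 under TIC10. The groups were well apart on this scale. In raw intensity they lay close without overlapping, at 147.6 to 228 on DMSO and 241.9 to 348.6 on TIC10 arrays. The change was 1.13 ± 0.10, 2.18-fold (adjusted p = 0.000739), and 0.40 in the authors' processed values, where it missed the threshold (adjusted p = 0.0917, with 6.59e-05 to 0.0917 over 16 alternatives). EDEM3, a mannosidase of the same family, read 7.42, 7.36 and 7.41 under DMSO and 7.78, 7.67 and 8.09 under TIC10. It rose by 0.45 ± 0.12 (adjusted p = 0.0354), missed the threshold when DMSO replicate 1 or 2 or TIC10 replicate 1 or 3 was left out (adjusted p up to 0.104), and its change was 0.00446 in the authors' processed values. EDEM2, a further lectin of this family, differed by 0.33 ± 0.11 (adjusted p = 0.0767). The ubiquitin ligase SYVN1, also called HRD1, differed by 0.40 ± 0.12 (adjusted p = 0.0583, and 0.0494 without DMSO replicate 3), but a second, dimmer probe gave 0.00. The sign of SYVN1 turned in the authors' processed values (-0.12) and with arrays scaled to one median (-0.05). Its scaffold SEL1L differed by -0.15, the derlins DERL1, DERL2 and DERL3, which form the exit channel, by -0.03, 0.24 and -0.02, and SELENOS, a selenoprotein that recruits the ATPase p97, by 0.24. None of these 5 passed. SEL1L and DERL3 were dim and failed the stricter filter on brightness, which limits what can be said of them.

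At the translocation channel 1 of 3 tested members rose and 0 fell, where 10.4% and 13.4% of all genes did. SERP1, a small protein that stabilises new membrane proteins at the channel, read 8.86, 8.91 and 8.93 under DMSO and 9.42, 9.20 and 9.44 under TIC10. Each TIC10 value was higher than each DMSO value. The change was 0.45 ± 0.09 (adjusted p = 0.0133), missed the threshold when TIC10 replicate 1 or 3 was left out (adjusted p up to 0.061), and was 0.01 with arrays scaled to one median. The channel subunits SEC61A1 and SEC61B differed by 0.15 ± 0.24 and 0.24 ± 0.09 and did not pass. SEC61A1 was -0.14 without DMSO replicate 3 and -0.10 in the authors' processed values, and SEC61B was -0.18 in the latter.

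For export and retrieval, the COPII cargo adaptor SEC24D rose and the retrieval receptor KDELR3 fell. SEC24D, which picks cargo for COPII vesicles, read 8.31, 8.21 and 8.01 under DMSO and 9.12, 9.03 and 9.54 under TIC10. The groups were apart, with TIC10 replicate 3 highest. The change was 1.05 ± 0.15, 2.08-fold (adjusted p = 0.00405), but it was 0.64 when scaled to one median (adjusted p = 0.119) and 0.18 in the authors' processed values (adjusted p = 0.568, with 0.000304 to 0.568 over 16 alternatives). Its relatives in the coat differed less: SEC24A by 0.26 ± 0.13 and SEC23B by 0.31 ± 0.10, which did not pass. SEC23B had 0.33 without DMSO replicate 3 (adjusted p = 0.0488), and a second probe of it gave 0.42 (adjusted p = 0.00922 over 20120 kept probes with a gene symbol, of which 21.5% passed). In the authors' processed values, however, the brightest probe of SEC23B was 0.02 and the second -0.05. With arrays scaled to one median SEC23B was -0.13. KDELR3 returns escaped ER proteins with a KDEL tail from the Golgi. It read 9.20, 9.19 and 9.33 under DMSO and 8.62, 8.75 and 8.55 under TIC10. The change was -0.60 ± 0.09 (adjusted p = 0.00407), and its other 2 probes gave -0.71 and -0.56, so that 3 of 3 probes were lower. In the authors' processed values KDELR3 differed by -0.21 (adjusted p = 0.319; 0.000346 to 0.319 over 16 alternatives).

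The folding genes and the genes of degradation and export were then set against each other. Of 18 tested folding members, 2 rose (11.1%) and 5 fell (27.8%), with a median log2 change of 0.04. Of 13 tested members of degradation and export, 3 rose (23.1%) and 1 fell (7.69%), with a median of 0.26. Over all genes 10.4% rose and 13.4% fell. Without DMSO replicate 3 the counts were 4 and 8 for folding and 5 and 1 for degradation and export, where 16.4% and 19.2% of all genes passed. The folding median was thus lower by 0.23 log2 units, and the difference of medians ran from -0.35 to -0.07 over 17 alternatives, the smallest in the authors' processed values. Measured within each array, the median level of the folding genes less that of degradation and export was 0.58, 0.32 and 0.57 under DMSO and 0.47, 0.32 and 0.57 under TIC10. On that measure the groups of arrays overlapped. Of the folding members 9 had changes above 0 and 9 below. Within them, changes ran from -1.09 for CRELD2 to 2.05 for DNAJB9. Whether the groups of members differ was not tested, since the members were chosen with results known.

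Raw bead intensities, before any scaling, lay wholly lower under TIC10 in 44.3% of all genes and wholly higher in 3.91%. All 6 members that fell had TIC10 intensities below every DMSO intensity, as did 99.9% of all genes called lower. CRELD2 read 1417, 1196 and 1482 on DMSO and 407, 433 and 463 on TIC10 arrays. Of the 7 that rose, DNAJB9, EDEM1 and SEC24D had TIC10 intensities above every DMSO intensity, as did 34.4% of all genes called higher. XBP1, SERP1, EDEM3 and CRELD1 overlapped before scaling: XBP1 read 1153, 975 and 1894 under DMSO and 1665, 1628 and 2104 under TIC10, with DMSO replicate 3, the brightest array, among the TIC10 values. The TIC10 arrays had the lower medians, 42.6 to 43.6 against 46 to 49.6 on DMSO arrays, and the part of this difference in the raw values was not tested. Scaled to one median, the falls were larger, from -0.79 for MANF to -1.53 for CRELD2, and the rises smaller, from 0.01 for SERP1, 0.03 for CRELD1 and 0.11 for EDEM3 to 1.63 for DNAJB9.

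Around the members, 150 other genes of the early secretory pathway were listed, of which 140 were tested. Of these 17 rose and 12 fell, 20.7% in all where 23.8% of all genes passed (10.4% higher, 13.4% lower). The median change was 0.10, against -0.01 over all genes, and -0.24 against -0.15 with arrays scaled to one median. Without DMSO replicate 3, 29 were higher and 23 lower, 37.1% where 35.6% of all genes passed. In folding, 2 of 34 rose and 3 fell. TXNDC12, a thioredoxin-like ER protein, rose by 0.56 and CLGN, calmegin, a relative of CANX, by 0.48, while the peroxiredoxin PRDX4 changed by -0.72, the oxidoreductase TMX3 by -0.52 and the prolyl isomerase FKBP11 by -0.49. In degradation, 6 of 28 rose and 6 fell, in the list with the most calls on both sides. The deubiquitinase YOD1 rose by 1.00, AUP1, which recruits the conjugating enzyme UBE2G2, by 0.74, and the lectin OS9 by 0.58. VCP, the p97 ATPase that pulls chains out of the membrane, changed by -0.97, its cofactor UFD1 by -0.50 and the Golgi mannosidase MAN1A1 by -0.81.

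In translocation and glycosylation, 3 of 31 rose (9.68%) and 2 fell (6.45%), where 10.4% and 13.4% of all genes did. SEC11C and SPCS3, subunits of the signal peptidase, both rose by 0.70, and SRP72 of the signal recognition particle by 0.65, while SRP14 of the same particle changed by -0.79 and SEC62 by -0.55. In export and retrieval, 4 of 36 rose (11.1%) and 1 fell (2.78%), where 10.4% and 13.4% of all genes did. MCFD2 and LMAN1, which together form a cargo receptor for export, rose by 1.08 ± 0.14 and 0.78 ± 0.19, TMED10 rose by 0.67, and SAR1A, a GTPase that starts the COPII coat, changed by -0.59. Among signalling genes 2 of 11 rose (18.2%) and 0 fell, where 10.4% and 13.4% of all genes did. CREBRF, a regulator of the CREB3 factors, rose by 1.29 ± 0.18, and the factor CREB3L2 by 0.73. Of these 29 calls, 29 held without DMSO replicate 3, 9 with arrays scaled to one median (1 rise and 8 falls), and 2 in the authors' processed values, those of CLGN and CREBRF. Over all genes 35.6% passed without DMSO replicate 3 and 6.7% in the processed values. With arrays scaled to one median 2.19% of all genes passed upward and 13.8% downward. In the processed values 24 of the 29 had the same sign, while LMAN1 (-0.05), SPCS3 (-0.06), TMX3 (0.06), ARCN1 and TMUB1 turned. SEC11C (0.01), MCFD2 (0.08), YOD1 (0.01) and TMED10 (0.00225) were near 0 there. ARCN1 also turned with arrays scaled to one median.

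**Figure D3:**
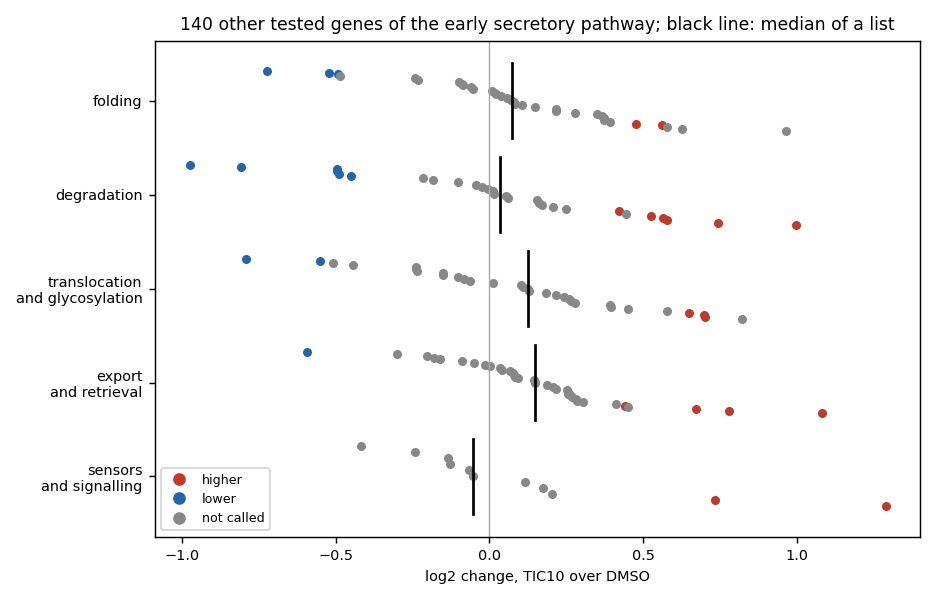
Log2 change of 140 other genes of the early secretory pathway (points) in TIC10 over DMSO arrays, by list, with the median of each list as a black line; red passed upward, blue downward, grey neither. Every list is centred near 0, with medians from -0.05 to 0.15, and the degradation list has 6 calls on each side.

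The authors' processed values gave a second view of the members. In them DNAJB9 (0.95), XBP1 (0.49) and SERP1 (0.52) were higher and SDF2L1 (-0.87), CALR (-0.50) and MANF (-0.44) lower, so that 6 of the 13 calls passed in the same direction, and all 13 had the same sign. Over the 37 members 26 had the same sign, and none of the others passed in either table. A further 4 members passed there, all higher: HYOU1 (0.86), ATF6 (0.75), HSPA5 (0.59) and EDEM2 (0.42), with adjusted p from 0.00546 to 0.0365. HYOU1, ATF6 and HSPA5 also passed in the bead table when DMSO replicate 3, which differed there from the mean of the other DMSO arrays by 1.03, -1.09 and 0.29, was left out. The replicates of the 2 tables could not be matched: the deviations from the group mean of arrays with the same number correlated at -0.73 to 0.08, and TIC10 replicate 2 of the bead table at 0.56 with TIC10 replicate 1 of the processed values. Only group means were therefore compared between the tables.

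**Figure D4:**
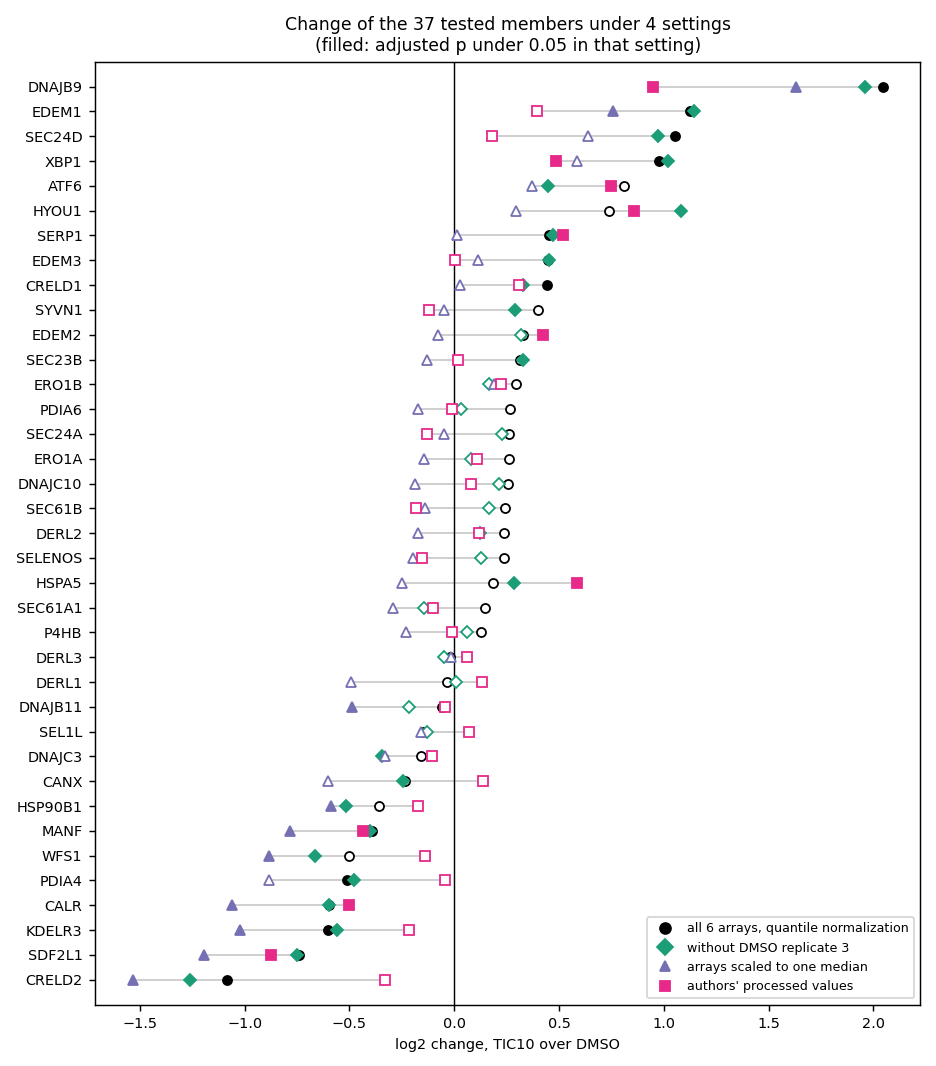
Log2 change of each tested member (horizontal axis) with all arrays (circles), without DMSO replicate 3 (diamonds), with arrays scaled to one median (triangles) and in the authors' processed values (squares); filled symbols passed the test in that setting. DNAJB9, SDF2L1, CALR and MANF are filled in all 4, the triangles lie to the left of the circles for nearly every gene, and HSPA5, HYOU1 and ATF6 are filled without DMSO replicate 3 and in the processed values.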

How the data were processed

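A genotype named in the title of the series is not reported here. Per the labels, total RNA was made into biotinylated cRNA for Illumina arrays. The authors' bead table, deposited as not normalized, gives 1 intensity per probe and array for 47319 probes, with no detection p-values; Control columns were matched to DMSO replicates by number. The deposited series matrix holds the authors' processed values, centred and taken as log2; their base, scaling and centring stay unknown, and column medians ran from -0.0956 to 0.0687.

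With R 4.3.3 and limma 3.58.1, intensities were background-corrected (normexp, offset 50), quantile normalized and taken to log2. Probes above percentile 40 of their array on at least 3 arrays were kept (29440). Of all probes 30112 had 1 gene symbol, 8 several and 17199 none, and Entrez numbers of 30073 matched RefSeq (GRCh38.p14) for current names. Each gene was read by its brightest kept probe. TIC10 was compared with DMSO by lmFit and eBayes, two-sided, Benjamini-Hochberg over 14534 genes. An exact test of 3 arrays against 3 cannot go below p = 0.1. Only the limma fit was tested on simulated data, drawn as independent noise around the normalized gene values. Background correction, normalization, the filter and the choice of probe were not simulated, nor was an outlying array. Per-array values are normalized log2 intensities, changes are log2 differences with the SE of the fit, and the number of arrays limits the precision.

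The members and lists were chosen with earlier results of these data known. Values on each array are given for members that passed and for HSPA5, HSP90B1, XBP1, ATF6 and ERN1, and for HYOU1, added after its values were seen; of other pathway genes, up to 3 largest rises and falls per list are named. Alternatives were no background correction (offset 16), one median, cyclic loess, the series matrix, and no filter or a stricter one (above percentile 60 on 6 arrays). Others were the mean of probes, every probe, eBayes with an intensity trend and robust variances, a replicate block, each array left out, and array weights. The array weights were added after seeing the data. Fits with an array left out kept the normalized values, kept probes and chosen probes of all 6 arrays. DMSO replicate 3 therefore still entered the normalization when it was left out.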

Additional observations from a re-analysis of the deposited data

How the results depend on the processing

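No called member changed sign under any of 16 alternatives, but calls came and went: 37 calls were lost and 29 gained over the members and alternatives. Members called higher (7) became 2 with arrays scaled to one median, 14 with array weights, which were chosen after seeing the data, and 4 to 12 with one array left out. Members called lower (6) became 3 in the series matrix and 3 to 10 with one array left out. The difference of medians between folding and degradation with export genes (-0.23) was -0.069 in the series matrix and -0.32 to -0.21 with one array left out. Over all genes, 1513 called higher became 318 with one median, 535 in the series matrix, 2775 with array weights and 891 to 2379 with one array left out, and 1950 called lower became 439 in the series matrix, 3238 with array weights and 1175 to 2790 with one array left out. With the replicate number as a block 5 members were higher and 6 lower, CRELD1 and EDEM3 losing their calls; over all genes 1265 were higher and 1611 lower. Same-numbered arrays deviated together at correlations of -0.15, 0.16 and -0.01, and not every array correlated best with its own number, so the numbers are not taken as pairs. The causes of these shifts were not tested. Dim probes, such as those of ERN1, PDIA3, SEL1L and DERL3, limit what can be seen, as no detection p-values came with the table.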
